A study of Drosophila melanogaster with 3 samples.

Results

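Of 7137 peaks kept by a test of the irreproducible discovery rate (IDR) across replicates in a chromatin immunoprecipitation (ChIP-seq) study of CG2116, 701 lay inside introns and far from gene starts, which is 9.82% (95% Clopper-Pearson interval 9.14 to 10.5%). A peak was counted here when its summit, on 1 of 6 main chromosome arms of dm6, was over 2000 bp from the nearest start of a protein-coding transcript, over 500 bp from the start of every noncoding transcript, inside a transcript and in no exon. These peaks are called far intronic below. The other IDR peaks comprised 5166 promoter peaks with summits within 500 bp of a protein-coding start, 497 intronic peaks nearer to a start, 461 intergenic peaks, 178 peaks at noncoding starts and 134 exonic peaks.

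Sequencing libraries were made from whole Drosophila melanogaster embryos of 0 to 24 h and of mixed sex, from the strain CG2116-GFP. The strain is a single transgenic line with GFP fused to the C terminus of CG2116, and anti-GFP antibody was used to precipitate chromatin sonicated to between 200 and 800 bp. There was 1 group of 3 libraries, numbered as biological replicates 1, 2 and 4, with no untagged strain or input list analysed here, and the embryos mixed all tissues and ages. Each replicate had a list of 30000 candidate peaks, the pooled reads had another 30000, and sequencing depth was unknown.

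Introns of developmental genes in flies often hold enhancers, short stretches of DNA where transcription factors bind and act on a promoter at a distance. Introns also hold alternative promoters, insulator sites and sites of chromatin regulators, so the position of a peak alone does not say what the DNA there does. At many promoters of broadly expressed fly genes, proteins bind sequence elements close to the start, among them the DNA replication-related element (DRE) TATCGATA and the motif GGTCACAC, while GAGAG is bound by GAGA factor at promoters and enhancers alike.

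The sequences that follow cover 151 bp centred on the summits of 8 of the 10 strongest far intronic peaks, and they are shown because 5 of them hold a short element, GCAACNCT, that few of the other members had. They were read from the RefSeq copy of dm6 on the plus strand, and capitals mark GCAACNCT and CGATA on either strand, with CGATA also found inside TATCGATA. The stretches are chrX:4684678-4684828 in Pp2C1, chr3L:23015838-23015988 in nrm, chrX:12467315-12467465 in CG42258, chrX:17865221-17865371 in mnb, chr3R:23902681-23902831 in sba, chr3R:16249758-16249908 in tara, chrX:3742144-3742294 in Tlk and chr3L:8458257-8458407 in Gug.
Pp2C1: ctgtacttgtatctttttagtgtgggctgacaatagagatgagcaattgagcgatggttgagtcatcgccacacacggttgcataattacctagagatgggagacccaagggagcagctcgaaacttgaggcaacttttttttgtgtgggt
nrm: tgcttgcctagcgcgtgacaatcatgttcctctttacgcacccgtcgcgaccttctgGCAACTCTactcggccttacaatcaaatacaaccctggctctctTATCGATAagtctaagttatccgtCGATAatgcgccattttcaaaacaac
CG42258: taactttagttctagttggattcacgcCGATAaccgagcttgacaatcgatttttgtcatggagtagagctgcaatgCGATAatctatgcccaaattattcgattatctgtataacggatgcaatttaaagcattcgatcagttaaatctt
mnb: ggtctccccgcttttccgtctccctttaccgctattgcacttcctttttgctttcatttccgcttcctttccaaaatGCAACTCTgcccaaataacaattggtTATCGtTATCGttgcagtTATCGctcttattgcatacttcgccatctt
sba: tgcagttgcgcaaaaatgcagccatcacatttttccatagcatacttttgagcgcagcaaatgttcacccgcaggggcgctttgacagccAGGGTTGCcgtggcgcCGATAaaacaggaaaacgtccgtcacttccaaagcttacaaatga
tara: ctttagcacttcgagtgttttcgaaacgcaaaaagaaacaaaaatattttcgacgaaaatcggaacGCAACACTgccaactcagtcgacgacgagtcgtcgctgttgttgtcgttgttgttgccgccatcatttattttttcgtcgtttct
Tlk: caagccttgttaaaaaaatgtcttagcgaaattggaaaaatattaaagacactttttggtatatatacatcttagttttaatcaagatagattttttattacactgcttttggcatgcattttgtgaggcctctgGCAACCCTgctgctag
Gug: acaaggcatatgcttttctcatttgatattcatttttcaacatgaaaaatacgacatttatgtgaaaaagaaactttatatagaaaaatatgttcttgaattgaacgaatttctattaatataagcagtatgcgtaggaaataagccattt

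The signal of a peak is the authors' value from their peak caller, on a scale that depends on the library. In the pooled list it ran from 144.1 to 3418 among the 701 far intronic peaks, with a median of 202.4, against a median of 342.0 among promoter peaks and 297.0 among all IDR peaks. None of the 701 was among the 100 strongest IDR peaks and 4 were among the 500 strongest. The 3568 strongest peaks of the IDR list held 19.7% of the far intronic peaks and 58.8% of the promoter peaks.

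To compare replicates, each IDR summit was paired with the nearest replicate summit within 100 bp, whose signal was scaled to a median of 1 over all peaks paired in that library. The median relative signal of far intronic peaks was 0.644 in replicate 1, 0.608 in replicate 2 and 0.743 in replicate 4, a mean of 0.665 ± 0.0699 (SD, n = 3), against 1.17, 1.18 and 1.14 among promoter peaks. Far intronic peaks were the weaker class in each replicate, and the replicate values of the classes did not overlap. On the log2 scale the difference from promoter peaks was -0.86, -0.96 and -0.62, a mean of -0.81 ± 0.17 (SD, n = 3), with p = 0.25 in a two-sided exact sign-flip permutation test over replicates. That is the smallest p that 3 replicates allow, so no comparison of this kind can reach 0.05. Far intronic peaks were closer to the intronic peaks nearer to starts, at -0.20 ± 0.04, and to intergenic peaks, at -0.12 ± 0.04 (SD, n = 3 each, log2).

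**Figure D1:**
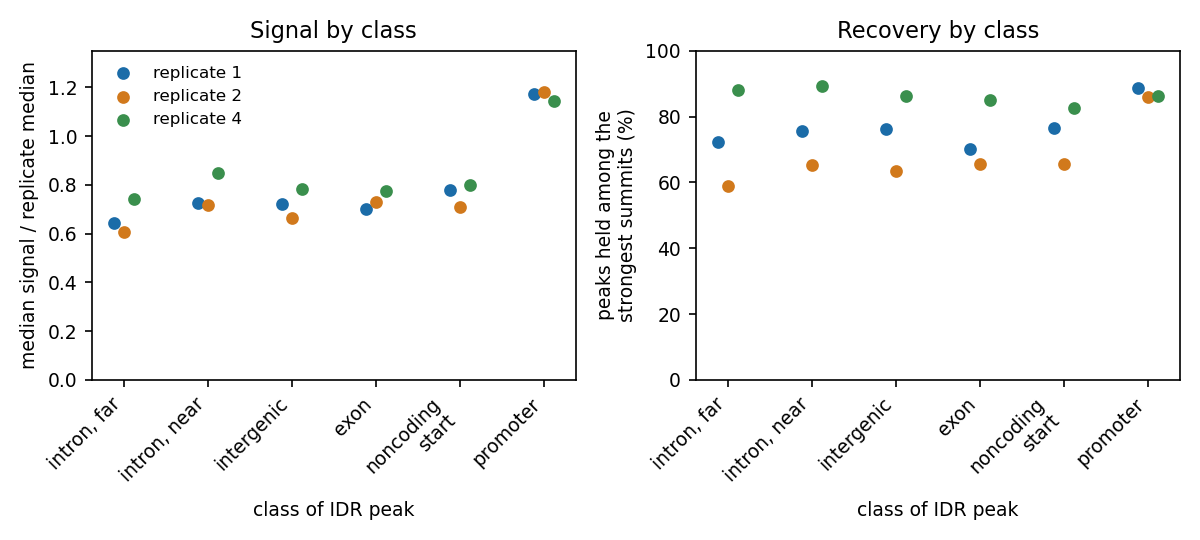
Median signal divided by the replicate's median over IDR peaks (left) and share of peaks held in a replicate in percent (right), for 6 classes of IDR peak, with 1 point per replicate. Far intronic peaks had relative signals of 0.608 to 0.743, below the promoter peaks at 1.14 to 1.18, and their share held ran from 59.1% in replicate 2 to 88.2% in replicate 4.

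Most pooled peaks in far introns did not pass the filter. The pooled list placed 7581 of its 30000 summits there, and 9.25% of them were in the IDR list, against 23.8% of all pooled peaks and 49.7% of those at promoters. The share was 9.13% of intergenic, 5.64% of exonic and 14.7% of near intronic pooled peaks. In bins of 3000 pooled peaks ordered by signal, far introns took 3.37% of the strongest bin, 12.5% of the next and 21.3% of the third. Their share was 33.3% in the weakest bin. Promoters took 86.8% of the strongest bin and 13.6% of the weakest. Weak peaks were thus placed in far introns far more often than strong ones. For scale, the sequence that meets the position rule covers 38.4 Mb, which is 28.7% of the arms.

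**Figure D2:**
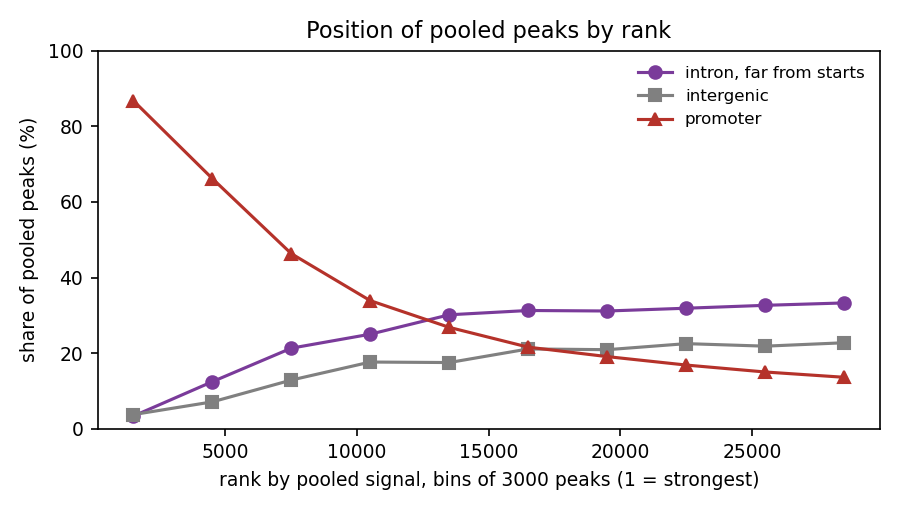
Share of pooled peaks in far introns, between genes and at promoters, in percent, against rank by pooled signal in bins of 3000 peaks. The far intronic share is 3.37% in the strongest bin and 33.3% in the weakest, and the promoter share is 86.8% and 13.6%.

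A peak was called held in a replicate when a summit among the 7137 strongest of that library was at most 100 bp away. Far intronic peaks were held at 72.2% in replicate 1, 59.1% in replicate 2 and 88.2% in replicate 4, against 88.6%, 85.9% and 86.1% of promoter peaks. Replicate 4 held as large a share of far intronic peaks as of promoter peaks, and the other two held fewer. All 3 replicates held 315 far intronic peaks, or 44.9% (interval 41.2 to 48.7%), against 70.9% of promoter peaks, with 64.5% among all IDR peaks. The remaining classes lay closer, at 49.9% of near intronic, 49.2% of intergenic, 48.3% of noncoding start and 47.8% of exonic peaks. The near intronic peaks showed the same order of replicates, at 75.7%, 65.4% and 89.3%. Replicate 4 alone held 105 of the 701, or 15.0%, against 3.25% of promoter peaks. Replicates 1 and 4 without replicate 2 held another 143, or 20.4%, against 7.74%. Only 14 far intronic peaks were held in no replicate.

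The gap between the classes was small among peaks of like strength. The IDR list was cut into 4 equal parts by pooled signal. In the strongest part all 3 replicates held 97.1% of 34 far intronic peaks and 97.1% of promoter peaks. In the second part the shares were 90.4% and 86.9%, and in the third 67.3% of 217 and 63.6%. In the weakest part, which held 346 far intronic peaks, they were 12.1% and 10.4%. There, replicates 1, 2 and 4 held 49.4%, 35.3% and 77.7% of far intronic peaks, against 56.3%, 51.4% and 55.8% of promoter peaks. Among these weakest peaks, replicate 4 held more of the far intronic class than of the promoter class, and replicates 1 and 2 held less. Within each replicate's own 7137 strongest summits, far introns took 9.05%, 7.36% and 11.0%, a mean of 9.13 ± 1.82% (SD, n = 3), and promoters took 73.6 ± 4.13%.

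The strongest far intronic peak lay in an intron of Pp2C1, which encodes a protein phosphatase of the PP2C type, 2150 bp downstream of its start. Its relative signal was 12.4, 9.54 and 11.6 in replicates 1, 2 and 4 (mean 11.2 ± 1.47, SD, n = 3). The second, in nrm, which encodes a cell adhesion molecule of the immunoglobulin family, had 6.82, 6.0 and 6.35 (mean 6.39 ± 0.409). Both exceeded the replicate median several times over in every library. The third, in CG42258, had 4.96, 4.97 and 5.30 (mean 5.08 ± 0.195). The values of Pp2C1 lay above those of nrm, and those of nrm above those of CG42258, without overlap.

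Next came peaks in sbb, which encodes a transcriptional corepressor, with 3.39, 3.03 and 4.98, and in CG12769, with 3.13, 3.01 and 3.83. The kinase gene mnb, the fly counterpart of DYRK1A, had 3.22, 3.203 and 3.0. The peak in sba had a mean of 3.01 ± 0.234, that in tara, a gene of the trithorax group, 3.0 ± 0.299, and that in Tlk, which encodes a kinase tied to chromatin assembly, 2.87 ± 0.705 (SD, n = 3 each). The means from CG12769 to Tlk lay within the larger SD of each neighbouring pair, so the order among them was not resolved.

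The rest of the 20 strongest are given with the known role of the host as background. The peak in Gug, which encodes the corepressor Atrophin, had a mean relative signal of 2.58 ± 0.471, and that in Kdm2, a histone demethylase gene, 2.43 ± 0.145. In trx, which encodes a histone H3 lysine methyltransferase, the values were 2.21, 1.84 and 3.17. The peak in simj, which encodes a subunit of the NuRD complex, had 2.26 ± 0.135, and that in JIL-1, a histone H3 kinase gene, 2.09 ± 0.282 (SD, n = 3 each).

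The peak in Hr3, a nuclear receptor gene, where the summit also lies in introns of the overlapping genes CG12912 and CG46321, had relative signals of 2.28, 1.52 and 2.58. Hr4 had 1.63, 1.65 and 2.30, and EcR, the gene of the receptor for the hormone ecdysone, had 1.96, 0.914 and 2.50. The EcR peak was thus above the median in replicates 1 and 4 and below it in replicate 2. Raf, a kinase of the MAP kinase cascade, had 1.97, 1.30 and 2.84. S, which encodes a carrier of EGF receptor ligands, had 1.92, 1.55 and 2.12, and Lrch had 2.21, 2.69 and 2.72. Across the 20 the coefficient of variation over replicates had a median of 13.4% and reached 45.1% in EcR.

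**Figure D3:**
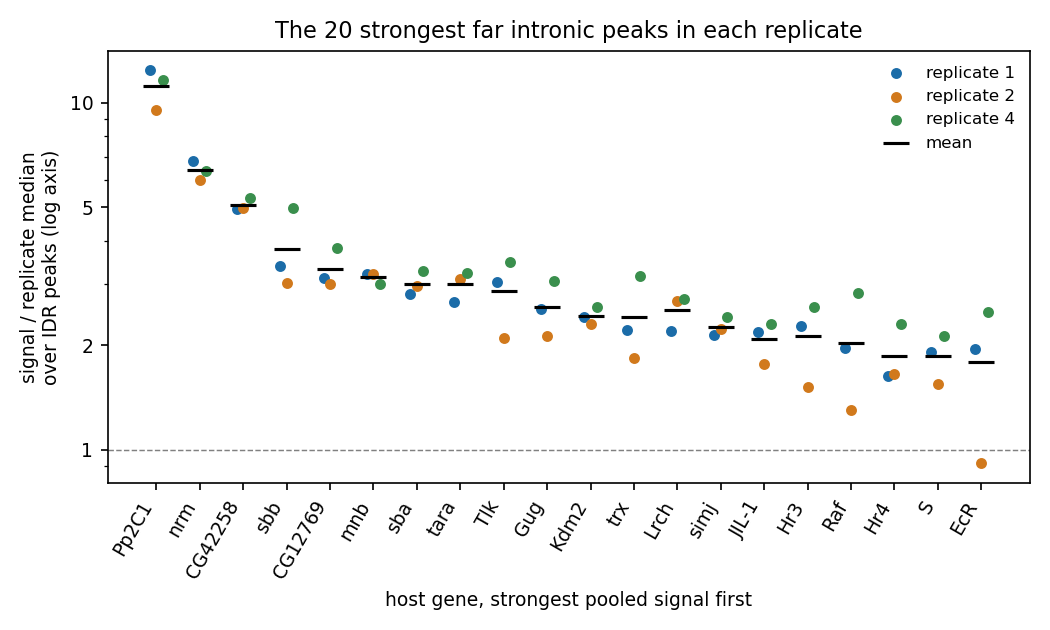
Signal of the 20 strongest far intronic peaks in replicates 1, 2 and 4, divided by the replicate's median over IDR peaks (log axis), with the mean as a bar; Hr3 stands for a position inside introns of 2 further genes too. Pp2C1 stands above the rest with a mean of 11.2, and replicate 2 gives the lowest value at EcR, 0.914.

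Far intronic peaks lay a median of 5203 bp from the nearest protein-coding start, with quartiles of 3334 and 9123 bp and a maximum of 93304 bp. The lower-ranked pooled peaks at like positions, those that overlap no IDR peak, had a median of 6486 bp. Per Mb of sequence that meets the rule there were 29.9 far intronic peaks between 2000 and 5000 bp, 21.8 between 5000 and 10000 bp, 13.4 between 10000 and 20000 bp and 5.22 beyond. The same densities among each replicate's strongest summits were 27.8 ± 5.31, 20.6 ± 3.11, 11.96 ± 3.52 and 4.94 ± 1.38 per Mb (SD, n = 3 each). Each replicate gave the same order. Lower-ranked peaks thinned out too, at 234, 200.2, 173.2 and 77.1 per Mb, so far intronic IDR peaks were 11.4% of both kinds in the nearest bin and 6.35% in the farthest.

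At the edge of the rule, the nearest members were a peak in lncRNA:CR44320 at 2001 bp with a pooled signal of 292.1 and one in CG9171 at 2009 bp with 215.7. Just outside were a peak in Rab11 at 1999 bp with 172.8 and one in oys at 1997 bp with 376.1. With RefSeq transcripts in place of Ensembl's, 700 of the 701 still met the rule, and none lay within 500 bp of a RefSeq start.

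The introns that held these peaks had a median length of 13074 bp and quartiles of 6855 and 25256 bp. The summit lay in the first intron of at least 1 transcript in 437 cases, or 62.3%. A rule that asks for over 2000 bp from a start favours long introns. Neither value was compared with eligible sequence or lower-ranked peaks, so they describe the members only. The summit's place within the intron and its neighbours were as follows. Summits lay a median of 2848 bp from the nearer intron edge, and 22 were within 200 bp of an edge. Another IDR summit was within 2000 bp of 187 of the far intronic summits, or 26.7%. A stronger pooled summit lay within 400 bp of 29, or 4.14%, always at the lower coordinate and with a median gap of 203 bp. The share among promoter peaks was 15.8%. The direction was that of the whole list: the nearest stronger summit was at the lower coordinate in 794 of 816 such promoter peaks. Over all IDR peaks it was so in 898 of 926. Without the 29, all 3 replicates held 45.7% of the far intronic peaks.

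There were 21.8 far intronic peaks per Mb of eligible sequence on 2L, 20.03 on X, 18.9 on 3L, 18.2 on 2R and 14.9 on 3R, with 18.3 over all arms. Chromosome 4 had none in 0.213 Mb, and 22 lower-ranked peaks. Taking 3 counts as an approximate upper limit for a count of 0 gives 14.1 per Mb, close to the 14.9 of 3R. That limit covers the upper tail only, and one from the exact intervals used elsewhere would be higher. Chromosome 4 is therefore not placed below 3R. A difference of chromosome 4 from the other arms was not tested, and it rests on little sequence.

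The elements that mark promoter peaks were scarce at far intronic summits. TATCGATA lay within 100 bp of 6 of the 701 summits, or 0.856% (interval 0.315 to 1.85%), against 16.3% of promoter peaks. Lower-ranked far intronic peaks held it at 0.540%, and 0.367% of the 175411 windows of 201 bp tiled over the eligible sequence did. GGTCACAC was found at 0.428%, against 9.79% of promoter peaks, 0.570% of lower-ranked peaks and 0.308% of windows. For both elements the interval of the far intronic share holds the shares of lower-ranked peaks and of windows. Near intronic peaks were as poor, with TATCGATA at 1.21% and GGTCACAC at 0.402%. Intergenic peaks had 3.90% and 1.30%. By parts of the IDR list, TATCGATA was at 2 of 34 far intronic peaks in the strongest part, 5.88% (interval 0.720 to 19.7%), against 27.3% of promoter peaks. It was at none of the second part and at 0.922% and 0.578% of the others, against 15.6%, 10.6% and 5.83% of promoter peaks.

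In the replicates' own strongest summits the share with TATCGATA was 0.774%, 0.762% and 0.638% in far introns (mean 0.725 ± 0.0754%, SD, n = 3) and 15.7 ± 1.18% at promoters. Each of the far intronic values was above the 0.367% of windows. They rest on few summits, the replicate lists share many sites, and the SD does not cover counting error. No excess over windows is drawn from them. The difference from promoters had p = 0.25 in the exact sign-flip test, the smallest possible. The shorter CGATA, which lies within TATCGATA and is the core of the BEAF-32 site, was at 23.7% of far intronic summits, against 53.9% of promoter peaks, 20.8% of lower-ranked peaks and 19.2% of windows. Near intronic peaks had CGATA at 22.7% and intergenic peaks at 33.0%. The gap to promoter peaks was smallest among the weakest peaks: from the strongest part of the IDR list to the weakest, CGATA was at 44.1%, 24.0%, 19.8% and 24.0% of far intronic peaks, against 71.4%, 54.2%, 45.8% and 33.2% of promoter peaks. CAGCTG, an E-box, was at 6.85%, against 15.8% of promoter peaks, 9.05% of near intronic peaks, 6.07% of intergenic peaks and 7.47% of windows.

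GCAACNCT was at 28 summits, or 3.99% (interval 2.67 to 5.72%), against 8.77% of promoter peaks, 2.37% of lower-ranked far intronic peaks and 2.09% of windows. Of the 20 strongest members 5 held it, those in nrm, mnb, sba, tara and Tlk, whose sequences are printed above. By parts of the IDR list it was at 17.6% of far intronic peaks in the strongest (6 of 34, interval 6.76 to 34.5%), 1.92% in the second, 4.15% in the third and 3.18% in the weakest. Promoter peaks had 13.0%, 8.20%, 7.07% and 4.54%. The printed peaks of Pp2C1, CG42258 and Gug hold no GCAACNCT, and that of nrm holds TATCGATA as well.

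Several of the other elements had higher shares at far intronic than at promoter peaks, and for these the intronic peaks nearer to starts had like shares. GAGAG was at 25.8% of far intronic summits, against 16.6% of promoter peaks, 26.6% of near intronic peaks, 23.2% of lower-ranked peaks and 21.5% of windows. TATAAA was at 36.4%, against 32.0%, 37.8%, 25.6% and 23.1% in the same order. The run AAAAAAAA was at 17.7%, against 11.4%, 17.1%, 15.4% and 14.1%, and the repeat CACACACA at 6.13%, against 2.46%, 7.04%, 7.21% and 5.72%. GCCAT, the core of the Pho site, was at 24.8% of far intronic summits, against 27.3% of promoter peaks, 34.2% of lower-ranked peaks and 36.8% of windows. GGTGGCGC, from the CTCF site, was at 0.713%, against 0.794% of promoter peaks and 3.47% of intergenic peaks. TGCATAC from the Su(Hw) site and the Zelda element CAGGTA were each at 3.99%, against 2.34% and 3.37% of promoter peaks and 3.08% and 3.72% of windows. Near intronic peaks had each of them at 4.63%. CACGTG was at 1.997%, against 2.75% of promoter peaks and 2.32% of windows. Every motif was searched on both strands. Base composition, given next, also differed between these sets, and its part in the shares was not tested.

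The DNA at far intronic summits was rich in A and T. GC content over 201 bp averaged 35.9% (SD 6.68 over 701 peaks), against 36.9% at promoter peaks, 36.1% at intergenic peaks, 40.2% at lower-ranked far intronic peaks and 40.6% over eligible windows. The far intronic summits among the strongest of replicates 1, 2 and 4 averaged 36.5%, 36.0% and 36.5%. The profile differed from that of promoters: in bins of 20 bp, GC content at far intronic summits was lowest, at 33.2%, in the bin left of the summit and was 43.9% at 210 bp to its right. At promoter peaks it was 37.9% beside the summit and lowest, at 35.1%, 90 bp away on the left. The mean profile of far intronic peaks thus had a single trough at the summit, and that of promoter peaks had a trough on either side. Promoters of both orientations were averaged on the plus strand, so a given promoter peak need not have both troughs. Intergenic IDR peaks also had their lowest value, 35.2%, beside the summit. Lower-ranked far intronic peaks had a shallow trough of 39.7%.

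**Figure D4:**
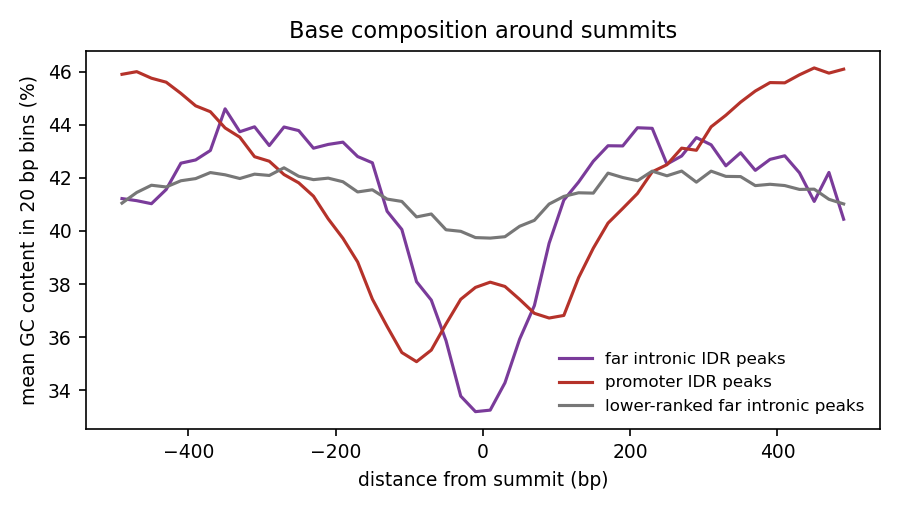
Mean GC content in percent in bins of 20 bp, against distance from the summit in bp on the plus strand, for far intronic IDR peaks, promoter IDR peaks and lower-ranked far intronic peaks. The far intronic line dips to 33.2% at the summit, where the promoter line stands at 37.9% and the lower-ranked line at 39.8%.

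A search for further 8-base words gave small counts that shrank between arms. Words were ranked on 2L, 2R and 4 by their share at far intronic summits against lower-ranked ones, and their shares were then read on 3L, 3R and X. GATGTTTA was at 4.78% of far intronic and 0.886% of lower-ranked summits on the first arms, and at 1.33% and 0.726% on the others. ACGATACC was at 1.20% on the first arms and at none on the others.

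The peaks were spread over many genes. Of 4295 protein-coding genes with any sequence that meets the rule, 424 held at least 1 far intronic peak, or 9.87%. Of these, 273 held 1, 83 held 2, 55 held 3 or 4 and 13 held 5 or more, and 20 peaks had no protein-coding host. The median eligible length was 10234 bp in hosts of 1 peak and 46769 bp in hosts of 5 or more, so hosts of many peaks also had more sequence in which a peak could lie.

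The gene with most was tara, with 9 peaks in 25125 bp of eligible sequence, of which 3 lay beside a stronger summit. Without those beside a stronger summit, tara had 6, below the 7 each of ush, sbb and Eip75B. The next was ush, which encodes a cofactor of GATA factors, with 8 peaks. Its relative signals ran from 0.488 to 1.75. Then came sbb with 7 and Eip75B, a nuclear receptor gene induced by ecdysone, with 7. Raf had 6, as did 4 further genes with weaker peaks, among them fz and ftz-f1, which encodes another nuclear receptor. All 5 of the genes first named also had an IDR summit at a start.

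In tara the peaks had mean relative signals between 0.311 and 3.0, and all 9 lay inside 1 intron of 30338 bp. In Eip75B they were even, between 0.454 and 1.17, and spread over much of the gene. In sbb, 5 of the 7 lay within a short stretch around the strongest peak, with mean relative signals of 0.678 to 3.80. In Raf, 5 of the 6 lay near the 5′ end, at 0.569 to 2.04.

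**Figure D5:**
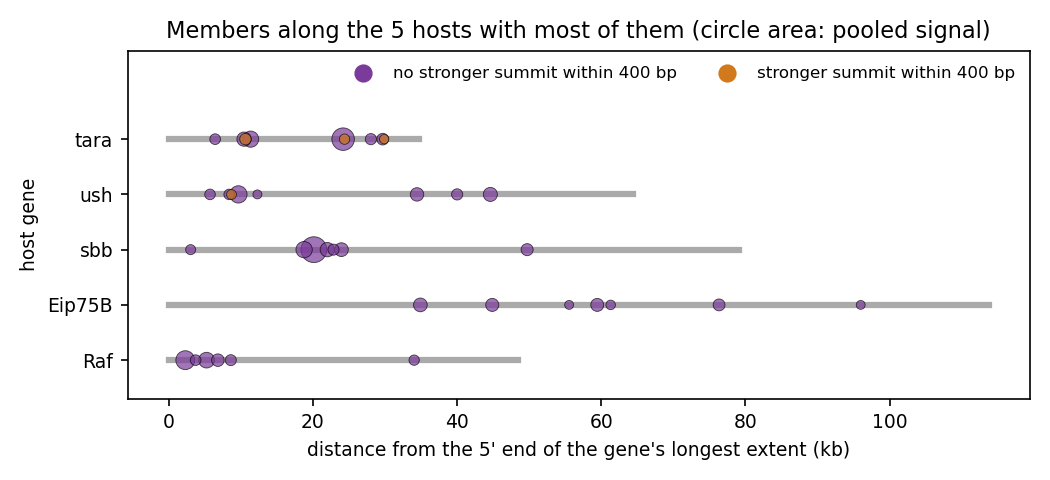
Positions of far intronic peaks along the 5 host genes with most of them, in kb from the 5′ end of the gene's full extent, with circle area proportional to pooled signal and orange for peaks with a stronger summit within 400 bp. The peaks of tara lie between 6.43 and 29.9 kb, those of Eip75B between 34.9 and 96.0 kb.

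Hosts were more often bound at a start than other genes with eligible sequence. An IDR summit lay within 500 bp of a start in 283 of the 424 hosts, or 66.7%, against 1942 of the 3871 genes without a far intronic peak, or 50.2%, with 42.6% over all 13945 protein-coding genes. Among genes with 20000 bp or more of eligible sequence the shares were 64.9% of 171 hosts and 23.8% of 353 others. Between 5000 and 20000 bp they were 68.2% and 36.7%, between 2000 and 5000 bp 66.1% and 44.3%, and below 2000 bp 73.3% of only 15 hosts and 59.1%. Genes are not independent replicates, and these shares are descriptions.

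Gene lists of 7 kinds, set out from textbook knowledge, differed in how many far intronic peaks they held per Mb of eligible sequence, beside 18.3 over all. Density over all genes fell with distance, from 29.9 per Mb between 2000 and 5000 bp to 5.22 beyond 20000 bp. The lists were not matched for distance from starts, and its part in their densities was not tested. Lower-ranked far intronic peaks stood at 173.5 per Mb over all, and far intronic IDR peaks were 9.52% of both kinds. Ion channels and neurotransmitter receptors stood lowest, with 2 peaks in 1.09 Mb, or 1.83 per Mb (exact Poisson interval 0.221 to 6.60), in 2 of 38 genes, or 5.26%. The 2 were Ca-alpha1T, a voltage-gated calcium channel, at a mean relative signal of 0.587, and dnc, which encodes a cAMP phosphodiesterase and is no channel, at 0.738. Lower-ranked peaks were at 90.5 per Mb there, and IDR peaks were 1.98% of both kinds. The replicates' strongest summits gave 1.83 ± 0.914 per Mb (SD, n = 3).

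Chromatin and insulator regulators stood highest of the lists, with 13 peaks in only 0.0908 Mb, or 143.2 per Mb (interval 76.2 to 244.9), in 8 of 36 genes, or 22.2%. The replicates gave 132.2, 121.2 and 143.2 per Mb. Lower-ranked peaks were also dense, at 308.4 per Mb, and IDR peaks were 31.7% of both kinds. Mi-2, which encodes the ATPase of NuRD, held 4 of the 13, in introns shared with the nested gene Su(Tpl), and without it the density was 111.8. The others were trx and HDAC4 with 2 each and Psc, ph-p, Sin3A, kis and Kdm4B with 1 each. Of the 36 genes, 91.7% also had an IDR summit at a start, against 51.8% of all genes with eligible sequence.

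Signalling components held 32 peaks in 16 of 41 genes, or 39.0%, at 46.8 per Mb (interval 32.0 to 66.1), with 45.8 ± 8.32 in the replicates. Lower-ranked peaks were dense there too, at 370.0 per Mb, so that IDR peaks were 11.2% of both kinds, close to the share over all. The receptor gene fz, of the Wnt and planar polarity pathways, held 6, its strongest at relative signals of 1.22, 1.13 and 1.88. The ETS factor gene pnt held 4, and aop and arr held 3 each. N, Egfr, InR, dpp, ptc and tkv were also hosts, with 1 or 2 each. The peak in aos, a secreted inhibitor of the EGF receptor, had 1.47, 1.66 and 2.04, in an intron shared with CG33158.

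Developmental transcription factors held 50 peaks in 18 of 62 genes, or 29.0%, at 36.9 per Mb (interval 27.4 to 48.7), with 31.5 ± 4.92 in the replicates. Lower-ranked peaks were at 233.4 per Mb, and IDR peaks were 13.7% of both kinds. The hosts with most were ush with 8, Eip75B with 7 and ftz-f1 with 6, and without ush the density was 32.1. Hr4 and the homeotic gene Antp held 4 each, Hr3, ct and luna 3 each, EcR and psq 2 each, and Abd-B, lab and cad 1 each. An IDR summit at a start was found in 29.0% of the 62, below the 51.8% of all genes with eligible sequence. Among genes without a far intronic peak, that share fell with eligible length. It was 59.1% below 2000 bp and 23.8% at 20000 bp or more, and the list was not matched for length.

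The remaining lists lay near or below the overall density, although each exceeded the 9.87% of all eligible genes in its share of hosts. Among all eligible genes that share rose with eligible length, from 0.633% below 2000 bp to 32.6% at 20000 bp or more. The lists were not matched for length, so no excess of hosts is drawn from this. Axon guidance and cell adhesion genes held 28 peaks in 14 of 43 genes, or 32.6%, at 16.04 per Mb. Among them kirre held 6 and Sema1a 4, and the netrin receptor gene fra had relative signals of 1.15, 0.812 and 1.21 at its strongest. In caps, which encodes a leucine-rich repeat adhesion protein, they were 1.05, 0.952 and 1.25.

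RNA-binding protein genes held 11 peaks in 9 of 23 genes, or 39.1%, at 8.76 per Mb. The strongest was in Rbfox1, at 1.24, 1.15 and 1.78, followed by pum, a translational repressor gene, at 0.932, 1.02 and 0.713. Cytoskeleton genes held 4 peaks in 4 of 33 genes, or 12.1%, at 9.93 per Mb. The strongest were in Fhos, a formin gene, at 1.02, 0.609 and 0.726, and in chic, the profilin gene, at a mean of 0.484 ± 0.248 (SD, n = 3). Lower-ranked peaks were at 188.4 per Mb in the axon guidance list, 163.3 in the RNA-binding list and 203.5 in the cytoskeleton list. The replicates gave 14.7 ± 6.12, 8.50 ± 1.66 and 8.27 ± 6.24 per Mb for these lists (SD, n = 3 each).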

How the data were processed

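The authors deposited 5 peak lists on dm6: 1 for each of 3 replicates, 1 from pooled reads and 1 that passed the IDR filter. Per the deposited files, each peak carries a signal value of the caller, never negative, and a −log10 q-value, which was not tested here. The aligner is not given in the sources used here, nor is the peak caller or the threshold of the IDR filter. Lists on dm3 were not used. Depth is unknown, so no interval covers it. There was 1 group. Nothing beyond the replicate numbers describes separate collections, so the spread may be technical.

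Summits were taken as the deposited start plus the offset plus 1, in 1-based coordinates. Starts, exons and introns came from Ensembl release 115, transposable elements included as noncoding units, and sequence from the RefSeq genome of the same assembly. Eligible sequence is every position that meets the rule. Python 3.11.15, numpy 2.4.6, pandas 2.3.3 and scipy 1.17.1 were used, and matching, classes, motif search and the permutation test were checked on simulated data. Intervals of 95% are exact and cover counting error only. Columns of other series numbered 0. Of 328 symbols in the 7 gene lists, 325 matched the annotation, 6 of them older names updated through RefSeq synonyms after the values were seen, and 3 were left out.

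The members and lists were chosen with earlier results of these data known. Peaks were named by rule: the 20 strongest held by 3 replicates with no stronger summit within 400 bp, those of the 5 hosts with most members (ties by strongest signal), the 2 strongest of each gene list, the strongest with each motif that 10% of members hold, and the 2 nearest to either side of the threshold. Hosts further listed by symbol are all those with the count given or were chosen after their values were seen. Alternatives changed the distance, match, motif windows, annotation, peak set and replicates.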

Additional observations from a re-analysis of the deposited data

How the results depend on the processing

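No paired analysis was possible because there was 1 group. The main counts and shares had 38 alternatives, of which 15 moved a share out of its 95% interval or a count by over 1.5 times. The log2 difference from promoter peaks stayed negative in each of its alternatives, at -0.91 to -0.74 when a replicate was left out and -0.44 for the 350 strongest members against all promoter peaks. It was -0.12 against intergenic peaks. Asking for over 5000 bp from a start left 370 peaks, and leaving transposable elements out of the annotation, added after the data were seen, gave 706. The share held by all replicates, 44.9%, was 29.2% with a match within 50 bp, 51.4% within 200 bp, 77.4% in the 350 strongest members, 86.9% over whole replicate lists and 9.42% when only the 3568 strongest summits per library counted. It was 48.2% to 65.3% when a replicate was left out, a criterion that is looser by construction, with 65.3% without replicate 2. The share with GCAACNCT was 2.28% in windows of 50 bp and 6.70% in windows of 200 bp, since longer windows hold more matches. Stronger summits lay within 200 bp of 7 members and within 1000 bp of 50. The share of far intronic pooled peaks that passed IDR was 10.5% where no stronger summit lay within 400 bp and 1.82% for the 3568 strongest of the IDR list. The density was 9.11 per Mb for the 350 strongest members, a smaller count by construction. Shares of 10 other motifs moved with the window in the same way. With the gene symbols as first written, added after the data were seen, the densities of the lists moved by at most the step in the cytoskeleton list. It stood at 7.82 per Mb with those symbols and at 9.93 in the main setting. No control list was analysed here, and the depth of the libraries, which limits how weak a peak could be found, was unknown.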
